A study of Sus scrofa with 34 samples.

Results

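The 10 genes described here encode the main transport proteins that carry sugars, di- and tripeptides and amino acids across the small intestinal epithelium. They were chosen by name: SLC5A1, SLC2A2, SLC2A5, SLC15A1, SLC6A19, SLC6A20, SLC7A9, SLC3A1, SLC1A1 and SLC7A7. All 10 were found among the 25880 genes of the count tables. Weaned crossbred pigs received a basal diet (control), the same diet with a phytogenic feed additive (PFA, a mix of essential oils and nature-identical compounds), or these 2 diets with oxidized rapeseed oil added (OO and OO + PFA). Per the study's supplement, the oxidized oil came on top of the basal ingredients. It raised the calculated energy and lowered the share of nearly all other ingredients. Oxidation of the oil therefore cannot be told apart from the level of oil and energy. RNA-seq of poly(A) RNA covered the ileum of 5 control and 5 PFA pigs and the liver of 6 pigs from each of the 4 diets, all labelled d28 and taken, per the study's methods, after 28 days on the diet. The 10 ileum pigs are also among the liver pigs, and no ileum library came from an oxidized oil diet. All animals of a diet shared 1 pen, so that diet and pen cannot be told apart, and the spread within a group is a spread between pen mates.

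An absorptive cell of the small intestine takes nutrients up through its brush border and passes them to the blood through its basolateral membrane. Uptake at the brush border is driven by sodium (SLC5A1 for glucose and galactose, SLC6A19 and SLC6A20 for neutral amino acids and imino acids, SLC1A1 for glutamate and aspartate) or by protons (SLC15A1 for small peptides), while the heterodimer of SLC7A9 and SLC3A1 exchanges cystine and dibasic amino acids for neutral ones. SLC2A5 lets fructose in, SLC2A2 is a low-affinity glucose and fructose carrier of the basolateral membrane and of hepatocytes, and SLC7A7 with its heavy chain SLC3A2 releases dibasic amino acids on the basolateral side.

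On the Sscrofa11.1 assembly (RefSeq annotation) the genes lie apart on 8 chromosomes. SLC5A1 is at chr14:48566400-48704145 on the plus strand and SLC7A7 at chr7:76195774-76235406 on the plus strand. The other 8 are on minus strands, namely SLC2A2 at chr13:109592595-109614105, SLC6A20 at chr13:28897831-28945191, SLC2A5 at chr6:69507829-69535794, SLC7A9 at chr6:42664795-42706113, SLC15A1 at chr11:67652808-67690457, SLC6A19 at chr16:79293940-79310922, SLC3A1 at chr3:96157387-96201057 and SLC1A1 at chr1:217366493-217441643. Every gene count sums the exons of the gene and so does not separate its transcripts. Some members share bases with genes on the opposite strand. These are SLC6A20 with SACM1L (8673 bases), SLC7A9 with TDRD12 (3152 bases) and SLC7A7 with OXA1L (697 bases). SLC3A1 shares 2147 bases with PREPL and 1010 bases with the unnamed locus LOC106508573. SLC1A1 shares 4876 bases with the unnamed locus LOC110256886. The libraries were made with a stranded kit, but the strand setting of the counting is not given in the sources used here, so reads from those shared stretches could belong to either gene.

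The 250 bases before the annotated start of each gene were searched on both strands for the letters of 4 motifs of intestinal and hepatic transcription factors. The letters GTTAAT stood for the core of an HNF1 site. For a site of HNF4, a nuclear receptor, the letters CAAAGTCCA were used. The core of a CDX site was taken as TTTATG. For the GATA family of zinc finger factors the search string was AGATAA. None of these contains another. The stretches of 3 genes are shown because they hold a match, in capitals, and a further one, that of SLC6A19, because it is the richest in G and C of all 10 and holds none.
SLC15A1 upstream, chr11:67690458-67690707, minus strand: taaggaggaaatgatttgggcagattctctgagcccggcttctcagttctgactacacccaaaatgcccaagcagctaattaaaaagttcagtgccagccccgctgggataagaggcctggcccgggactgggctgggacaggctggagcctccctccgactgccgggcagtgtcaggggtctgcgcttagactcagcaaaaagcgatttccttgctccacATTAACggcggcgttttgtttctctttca
SLC2A5 upstream, chr6:69535795-69536044, minus strand: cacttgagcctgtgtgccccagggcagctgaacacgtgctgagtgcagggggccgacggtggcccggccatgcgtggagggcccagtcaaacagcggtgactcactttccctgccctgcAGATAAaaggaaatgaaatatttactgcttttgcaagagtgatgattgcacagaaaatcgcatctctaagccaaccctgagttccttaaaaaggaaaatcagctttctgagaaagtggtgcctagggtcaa
SLC6A20 upstream, chr13:28945192-28945441, minus strand: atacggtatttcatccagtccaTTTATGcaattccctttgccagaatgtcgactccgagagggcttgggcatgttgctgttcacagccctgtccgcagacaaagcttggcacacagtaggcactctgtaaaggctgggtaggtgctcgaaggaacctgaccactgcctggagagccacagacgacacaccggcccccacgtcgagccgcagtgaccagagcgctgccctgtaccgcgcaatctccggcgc
SLC6A19 upstream, chr16:79310923-79311172, minus strand: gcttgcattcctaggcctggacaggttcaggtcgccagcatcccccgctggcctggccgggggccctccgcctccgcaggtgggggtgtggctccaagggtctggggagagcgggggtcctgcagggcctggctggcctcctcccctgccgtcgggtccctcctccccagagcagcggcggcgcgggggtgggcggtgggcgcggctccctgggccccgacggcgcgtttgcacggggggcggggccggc
The match in SLC15A1 is the HNF1 letters on the reverse strand, starting 29 bases before the gene start. In SLC2A5 the GATA letters start 131 bases before it, and in SLC6A20 the CDX letters start 228 bases before it. These letters were present in the same window of 4.92% (HNF1 core), 6.78% (GATA) and 6.76% (CDX core) of 13706 promoters, and the HNF4 letters in 0.277%. No member held the HNF4 letters, and the other 7 members held none of the 4 motifs. The G and C share of the window was 77.6% in SLC6A19, 69.6% in SLC5A1 and 70% in SLC1A1, against 43.6% in SLC3A1 and a median of 60% over all promoters. A match of this kind describes the letters and not binding.

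The libraries held 18738055 to 42446834 counts on genes, with 18772230 to 24338165 in the ileum. The tissue labels held against marker genes. Among the 6 hepatocyte markers, TTR, AHSG and CYP2E1 had no count in any ileum library, and the summed level of all 6 stayed at or below 0.249 CPM (counts scaled to a fixed library total after TMM, the trimmed mean of M values) there, against at least 81460 CPM in every liver library. FABP6, the bile acid carrier of ileal absorptive cells, ranged from 1967 to 9851 CPM in the ileum and stayed at or below 0.0448 CPM in the liver. One liver library, OP-77 of the OO + PFA group, had 36.6 reads with several alignments per 100 gene counts, where the other liver libraries had 3.02 to 14.7. It was left out, as in the study, and results that change with it are given both ways. In a piece of whole tissue, fewer cells of a type cannot be told apart from less RNA per cell.

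Within the ileum, SLC5A1 stood far above the other members. Levels of different genes were compared as CPM per kilobase of exon. SLC5A1 averaged 769 ± 140 (SD, n = 10 pigs), in the top 0.362% of the 11343 genes with a length, and its lowest library (518) lay above the highest library of any other member. SLC1A1 with 186 ± 47.0 (SD, n = 10) and SLC15A1 with 180 ± 35.9 (SD, n = 10) came next and did not differ beyond their spread, since SLC1A1 was the higher of the pair in 4 of 10 pigs. SLC2A2 followed with 136 ± 52.5 (SD, n = 10) and was lower than SLC15A1 in 8 of 10 pigs.

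The other amino acid transporters formed a lower group per kilobase. Exon lengths came from RefSeq, and the annotation release of the counts is not given, so the order depends on the lengths used. In CPM, the control means of SLC6A20 (236) and SLC7A7 (233) lay above that of SLC7A9 (121). SLC7A9 reached 66.1 ± 8.91 CPM per kilobase (SD, n = 10) and was the least variable member relative to its level. SLC7A7 with 45.2 ± 6.57 (SD, n = 10) and SLC6A19 with 44.7 ± 19.2 (SD, n = 10) overlapped, as SLC7A7 was the higher in 6 of 10 pigs. SLC6A20 (30.5 ± 8.52, SD, n = 10) and SLC3A1 (22.1 ± 6.30, SD, n = 10) overlapped their neighbours in the order too. SLC2A5 was last, with 10.02 ± 3.92 CPM per kilobase (SD, n = 10), lower than SLC3A1 in 10 of 10 pigs. The transcript of the heavy chain SLC3A1 was thus present at a lower level per length than that of its partner SLC7A9.

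The comparison of PFA with control pigs asked whether the additive moved these transcripts in the ileum. No member passed the test (adjusted p of at most 0.05 in edgeR's quasi-likelihood test, adjusted over 14300 genes), and neither did any other gene, so that 0% of the genes tested were called. Without adjustment 401 of the 14300 genes and 0 of the 10 members had p under 0.05. That number was 2026 without P-134 and 1004 without C-110, with 0 genes called in both cases. DESeq2 called 5 genes, none of them a member. On the log2 scale 9 members had a lower and 1 (SLC6A20) a higher mean with PFA. The median difference was -0.13 over the members and 0.02 over all genes on that scale. The control and PFA groups overlapped for every member. The plot of ileal values by pig shows the spread behind these numbers.

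**Figure D1:**
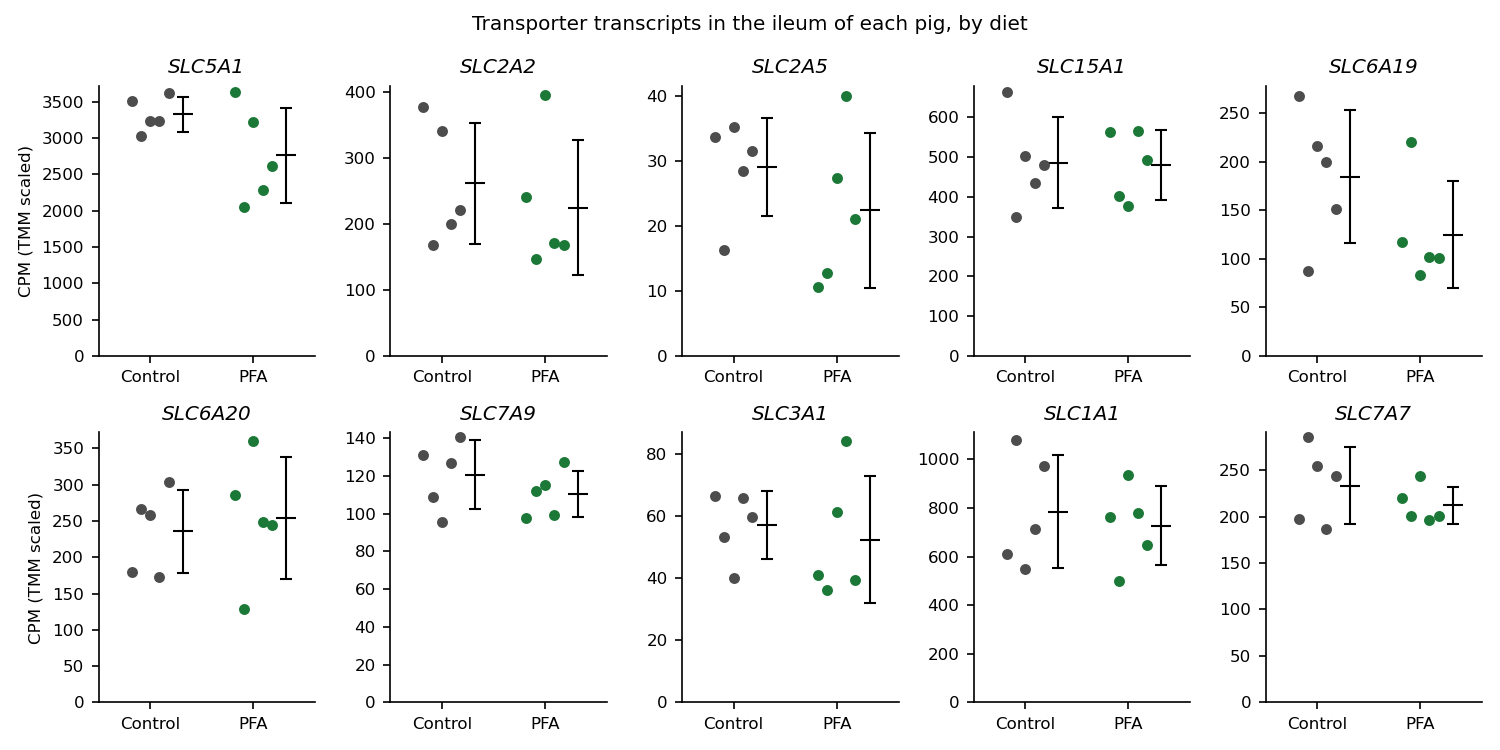
Each panel shows 1 transporter gene in the ileum, with each point 1 pig in CPM (TMM scaled, linear axis from 0), control in grey and PFA in green, and the bars mean and SD (n = 5 per diet). The groups overlap in every panel, and the widest gap of means relative to level is that of SLC6A19 (185 against 125 CPM).

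Among the sugar transporters, SLC5A1, the sodium-coupled glucose carrier, had 3028, 3228, 3237, 3515 and 3613 CPM in the control pigs. The PFA pigs had 2051, 2278, 2614, 3219 and 3636 CPM. The 3 PFA pigs of lowest level (P-134, P-75 and P-95) lay below all control pigs, while P-107 lay above them. The log2 fold change was -0.27 (SE 0.16, 95% interval -0.62 to 0.09, adjusted p = 0.991). The PFA group was also the more variable, with a coefficient of variation of 23.9% against 7.13% in the control group.

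SLC2A2 varied over a wide range in both diets, with 169, 200, 222, 342 and 377 CPM in the control pigs and 147, 168, 171, 242 and 396 CPM in the PFA pigs. The highest single value was that of P-138 and the lowest that of P-134, both fed PFA. The log2 fold change was -0.22 (SE 0.30, 95% interval -0.88 to 0.44, adjusted p = 0.991), and it ran from -0.53 without P-138 to -0.053 without C-100. SLC2A5, the fructose carrier, had 16.4, 28.5, 31.6, 33.7 and 35.3 CPM in the control pigs and 10.6, 12.9, 21.1, 27.5 and 40.1 CPM in the PFA pigs. Both the lowest and the highest SLC2A5 value came from the PFA group (P-107 and P-75), and the log2 fold change was -0.38 (SE 0.34, 95% interval -1.12 to 0.37, adjusted p = 0.991).

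SLC15A1, the proton-coupled peptide carrier, was the member with the smallest difference. The control pigs had 349, 435, 481, 504 and 663 CPM and the PFA pigs 377, 403, 494, 562 and 565 CPM. All PFA values lay within the control range, and the log2 fold change was -0.02 (SE 0.18, 95% interval -0.41 to 0.37, adjusted p = 0.995).

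SLC6A19, the main sodium-coupled carrier of neutral amino acids, had the largest fold change of the 10 on the log2 scale in this fit, though not with the GC slope as covariate (given after the single genes), and was not called. Its values were 87.4, 152, 200, 216 and 268 CPM in the control pigs and 83.04, 101, 102.3, 118 and 221 CPM in the PFA pigs. Of the PFA pigs 4 of 5 were at or below 118 CPM, and 4 of 5 control pigs were at or above 152 CPM, with C-110 and P-134 each among the values of the other group. The log2 fold change was -0.56 (SE 0.31, 95% interval -1.25 to 0.12, adjusted p = 0.991), and it ran from -0.87 without P-134 to -0.39 without C-100.

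SLC6A20, which carries proline and other imino acids, had 173, 180, 258, 266 and 304 CPM in the control pigs and 129, 245, 249, 286 and 360 CPM in the PFA pigs. P-134 was the lowest and P-138 the highest of all 10 pigs. The log2 fold change was 0.10 (SE 0.25, 95% interval -0.44 to 0.65, adjusted p = 0.991).

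SLC7A9, the light chain of the cystine and dibasic amino acid exchanger, had 95.7, 109, 127, 131 and 141 CPM in the control pigs and 97.9, 99.4, 112, 115 and 127 CPM in the PFA pigs. Its log2 fold change was -0.13 (SE 0.12, 95% interval -0.40 to 0.14, adjusted p = 0.991). The heavy chain SLC3A1 had 40.0, 53.3, 59.8, 66.0 and 66.6 CPM in the control pigs and 36.2, 39.5, 41.0, 61.3 and 84.4 CPM in the PFA pigs. Here too the extremes came from the PFA group, P-134 and P-75, and the log2 fold change was -0.12 (SE 0.24, 95% interval -0.64 to 0.40, adjusted p = 0.991).

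SLC1A1, the glutamate and aspartate carrier, had 549, 610, 714, 973 and 1082 CPM in the control pigs and 502, 649, 765, 780 and 937 CPM in the PFA pigs, a log2 fold change of -0.11 (SE 0.22, 95% interval -0.58 to 0.36, adjusted p = 0.991). SLC7A7, the basolateral light chain, had 187, 198, 244, 254 and 286 CPM in the control pigs and 197, 200, 200, 220 and 244 CPM in the PFA pigs. All PFA values of SLC7A7 lay within the control range, and the log2 fold change was -0.14 (SE 0.13, 95% interval -0.42 to 0.15, adjusted p = 0.991). The width of the 95% intervals differed between members with 5 pigs per diet. It was narrowest for SLC7A9 and widest for SLC2A5, and for SLC6A19 the interval reached down to -1.25.

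P-134, a PFA pig, recurred as the lowest value of SLC5A1, SLC2A2, SLC6A20, SLC3A1 and SLC1A1 and as the highest PFA value of SLC6A19. The libraries differed in how counts followed the G and C content of the genes. This was measured as a GC slope, the change in log2 CPM relative to the mean of the tissue's libraries per 10 percentage points of gene GC content, and it ran from -0.344 in P-138 to 0.354 in P-134. SLC6A19 is the member richest in G and C (63.1% of exonic bases), and its 5 highest libraries (C-100, P-134, C-71, C-80 and C-92) were the 5 of highest GC slope. Its 2 lowest, C-110 and P-138, had the 2 lowest slopes. SLC1A1 (43.2% G and C) had its 3 highest values in C-110, C-92 and P-138 and its 2 lowest in P-134 and C-71.

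With the GC slope as a covariate, the log2 fold change of SLC6A19 was -0.25 (adjusted p = 0.999) in place of -0.56, that of SLC1A1 -0.31 in place of -0.11, and that of SLC6A20 -0.19 in place of 0.10. No member was called in that fit either, where SLC1A1 had an unadjusted p of 0.0226 (adjusted p = 0.999). The slope was negative in every PFA library but P-134 and positive in every control library but C-110. Slope and diet are therefore not fully separable in this fit. The plot of the 3 genes against the slope shows the libraries.

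**Figure D2:**
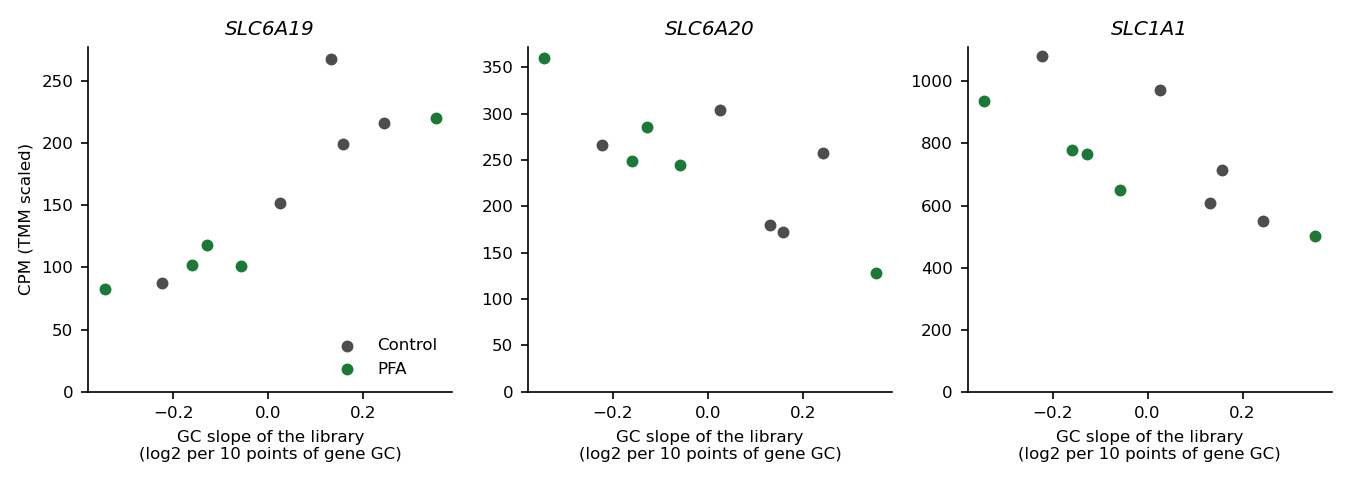
Levels of SLC6A19, SLC6A20 and SLC1A1 in the 10 ileum libraries (CPM, TMM scaled, vertical axis from 0) against the GC slope of the library (horizontal axis, log2 units per 10 percentage points of gene GC content). SLC6A19 is at 83.04 CPM in the library of lowest slope and at 221 CPM in that of highest slope, whereas SLC6A20 is at 360 and 129 CPM in the same 2 libraries.

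Genes of related function in the ileum had no call in edgeR's test either. Of 11 further sugar transport and fructose genes tested in the ileum, 0 were called, and their median log2 fold change was -0.22. The 3 of smallest unadjusted p were SLC5A9, a mannose and fructose carrier related to SLC5A1 (-0.50, SE 0.13), the inositol carrier SLC5A11 (-0.39, SE 0.21) and TXNIP, a glucose-responsive regulator of glucose uptake (-0.49, SE 0.38). SLC5A9 had 13.9 to 18.5 CPM with PFA and 19.2 to 24.9 CPM in the control pigs. Genes named for a small p in this comparison tend to have separate ranges, so these ranges are no further support. Of 17 further amino acid and peptide transport genes 0 were called, with a median of -0.13. First by unadjusted p came SLC3A2, the heavy chain that pairs with SLC7A7 (-0.37, SE 0.17). SLC38A2, a sodium-coupled neutral amino acid carrier (0.28, SE 0.19), and the peptide carrier SLC15A2 (-0.65, SE 0.50) followed. The median of SLC15A2 was 14.6 CPM in the control pigs, with a maximum of 70.6 CPM, and 15.4 CPM with PFA.

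Among 11 partners and driving pumps 0 were called, with a median of -0.06. The sodium pump subunit ATP1B1 had a log2 fold change of 0.19 (SE 0.13) and the sodium-proton exchanger SLC9A3 one of -0.33 (SE 0.26). The luminal digestion list, brush border enzymes that make the sugars and peptides these carriers take up, had 10 genes tested and 0 called, with a median of -0.14. ANPEP, an aminopeptidase that was also named for its small p, had 5343 to 6954 CPM with PFA and 8028 to 9501 CPM in the control pigs (-0.53, SE 0.12, adjusted p = 0.991). ANPEP was among the 5 genes that DESeq2 called (-0.54, adjusted p = 0.00206), so that its call depended on the tool. NAALADL1, a further peptidase, was at -0.54 (SE 0.22) and the enteropeptidase TMPRSS15 at 0.78 (SE 0.43). Of 13 transcription factors 0 were called, with a median of -0.04, and GATA5 (-1.11, SE 0.50), CDX2 (-0.28, SE 0.14) and MLXIPL (-0.58, SE 0.31) came first.

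Marker lists of the ileum also had no call. Of 8 general absorptive cell markers 6 had a lower mean with PFA (median log2 fold change -0.22), and their summed level was 10060 to 14680 CPM with PFA and 9902 to 14930 CPM in the control pigs. Of the 4 markers of distal ileal absorptive cells 3 had a lower mean, and the summed level was 2528 to 6494 against 3195 to 10830 CPM. B and T cell markers summed to 441 to 730 against 474 to 1118 CPM (5 of 7 lower, median log2 fold change -1.09) and smooth muscle markers to 2895 to 8845 against 1803 to 7590 CPM (4 of 5 higher), with none of either list at 0 in all libraries. The 4 tested crypt and proliferation markers (3 higher), the 5 goblet markers (3 lower), the 4 enteroendocrine markers (3 lower) and the 4 fibroblast markers (3 lower) had no call. The part of cell composition in the transporter values was not tested.

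Pairs of proteins, 7 in all, known to work together or in series, were compared across the 10 ileum libraries as log2 CPM. No pair passed after adjustment over the 7, of which 5 are given here. The glucose route, SLC5A1 at the brush border and SLC2A2 at the basolateral side, had the highest correlation, with Pearson's r = 0.66 (permutation p = 0.0344, adjusted p = 0.241) while the rank coefficient, Spearman's rho, was 0.65 (permutation p = 0.0486, and 0.340 after adjustment). Taken as deviations from the diet means the value was r = 0.65 (permutation p = 0.0445), and without P-138 and C-100, the 2 libraries farthest from the SLC2A2 median, r = 0.69 (permutation p = 0.0513).

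The 2 chains of the cystine exchanger, SLC3A1 and SLC7A9, had r = 0.23 and rho = 0.22 (permutation p = 0.512 and 0.536, adjusted p = 0.660 and 0.680). SLC3A2 and SLC7A7 had r = -0.18 and rho = -0.24 (permutation p = 0.608 and 0.514). SLC2A2 and SLC2A5 had r = 0.40 and rho = 0.36, and SLC9A3 and SLC15A1 had r = 0.22 and rho = 0.20 (permutation p of at least 0.247 in all 4). Without the 2 libraries farthest from the median of the first gene, the sign of r turned for SLC9A3 with SLC15A1.

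By Pearson's r over the 10 ileum libraries, given as a description since all genes share the same libraries, their depth and their GC slope, the gene most like SLC2A5 was SLC2A7, another hexose carrier (r = 0.95). SLC2A7 lies 4.07 kb downstream of SLC2A5 on the same strand of chromosome 6 (chr6:69483736-69503758), and its ileal level ran from 17.1 CPM in P-134 to 69.1 CPM in C-71. Reads that align to both paralogs would be in neither count, since reads with several alignments were left out. The most like genes of the others were LETM2 for SLC5A1 (0.94), the gene ENSSSCG00000033481 for SLC2A2 (0.96), FAXDC2 for SLC15A1 (0.90), RBCK1 for SLC6A19 (0.99), NCBP2 for SLC6A20 (0.94), MYOM3 for SLC7A9 (0.86), WDR70 for SLC3A1 (0.91), CCL26 for SLC1A1 (0.97) and SHOC1 for SLC7A7 (0.93). Against the mean of the 10 standardized members the 5 most like genes were RXRG (0.96), MTIF2 (0.90), ENSSSCG00000028871 (0.89), FABP6 (0.88) and ENSSSCG00000040785 (0.86).

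The liver of the same pigs served as the contrast. In the ileum, 8 of the 10 members were called higher with a fold of at least 2, against 24.1% of the 14982 genes tested. SLC6A19, SLC2A5 and SLC15A1, close to or at 0 in the liver, entered this test through their ileum counts alone, and with at least 10 counts required in every library the number called was 5 of the 7 members left. None was called lower at that fold, against 21.3% of genes. SLC7A7 (higher) and SLC2A2 (lower) passed the adjusted p with folds of 1.33 and 1.97. The sizes split the members into carriers that were close to or at 0 in the liver, carriers that the liver held at a lower level, and carriers shared by both tissues. CPM values in this comparison were scaled over the 20 libraries together, and the folds depend on that scaling. Scaled within each tissue, control means of SLC2A2 were 262 CPM in the ileum and 234 CPM in the liver. By that scaling SLC7A7 was at 233 and 89.9 CPM, and SLC6A20 at 236 and 49.4 CPM.

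SLC6A19 had no count in any of the 24 liver libraries. In the ileum it ranged from 56.2 to 183 CPM, and its mean was at least 647-fold higher than the liver level of a gene with 3 counts per library. SLC2A5 had 0 to 3 counts per liver library and an ileum mean of 17.5 ± 6.83 CPM (SD, n = 10), at least 108-fold higher by the same floor. SLC15A1 had 1 to 11 counts in the liver of the 10 pigs, 0.208 ± 0.123 CPM, against 328 ± 66.7 CPM in the ileum (SD, n = 10 each). These liver counts were near the floor and the gene passed the filter through the ileum alone. No fold or p-value is therefore given for it.

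SLC5A1 was low but measurable in the liver, with 4.31 ± 1.33 CPM against 2063 ± 386 CPM in the ileum (SD, n = 10 each), which is 8.90 on the log2 scale (SE 0.22, adjusted p = 7.48e-19). SLC1A1 had 15.2 ± 3.12 against 512 ± 128 CPM (SD, n = 10 each), which is 5.08 on the log2 scale (SE 0.16, adjusted p = 6.35e-17). The 2 chains of the cystine exchanger had nearly the same ratio between tissues. SLC7A9 was at 6.83 ± 1.60 CPM in the liver and 78.4 ± 10.99 CPM in the ileum (SD, n = 10 each, log2 fold change 3.52, SE 0.13, adjusted p = 9.44e-16), and SLC3A1 at 3.47 ± 1.33 and 37.2 ± 10.7 CPM (SD, n = 10 each, log2 fold change 3.44, SE 0.23, adjusted p = 1.07e-11). Each of these 7 carriers was higher in the ileum in 10 of 10 pigs.

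SLC6A20 was 2.1-fold higher in the ileum by the ratio of means, with 166 ± 46.1 against 78.8 ± 20.1 CPM (SD, n = 10 each), higher in 9 of 10 pigs (log2 fold change 1.08, SE 0.18, adjusted p = 1.06e-05). SLC7A7 was at 151 ± 21.0 CPM in the ileum and 115 ± 18.8 CPM in the liver (SD, n = 10 each), also higher in 9 of 10 pigs (log2 fold change 0.41, SE 0.08, adjusted p = 1.07e-04). SLC2A2 went the other way on this joint scale, with 165 ± 63.7 CPM in the ileum and 324 ± 81.2 CPM in the liver (SD, n = 10 each). In the liver it carries glucose in and out of hepatocytes. On the joint scale it was higher in the liver in 9 of 10 pigs (log2 fold change -0.98, SE 0.20, adjusted p = 1.44e-04). The value was -1.03 to -0.83 under the other settings run, all of which scale both tissues jointly. Its direction was not kept when each tissue was scaled alone. The plot of both tissues by gene shows these 3 groups.

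**Figure D3:**
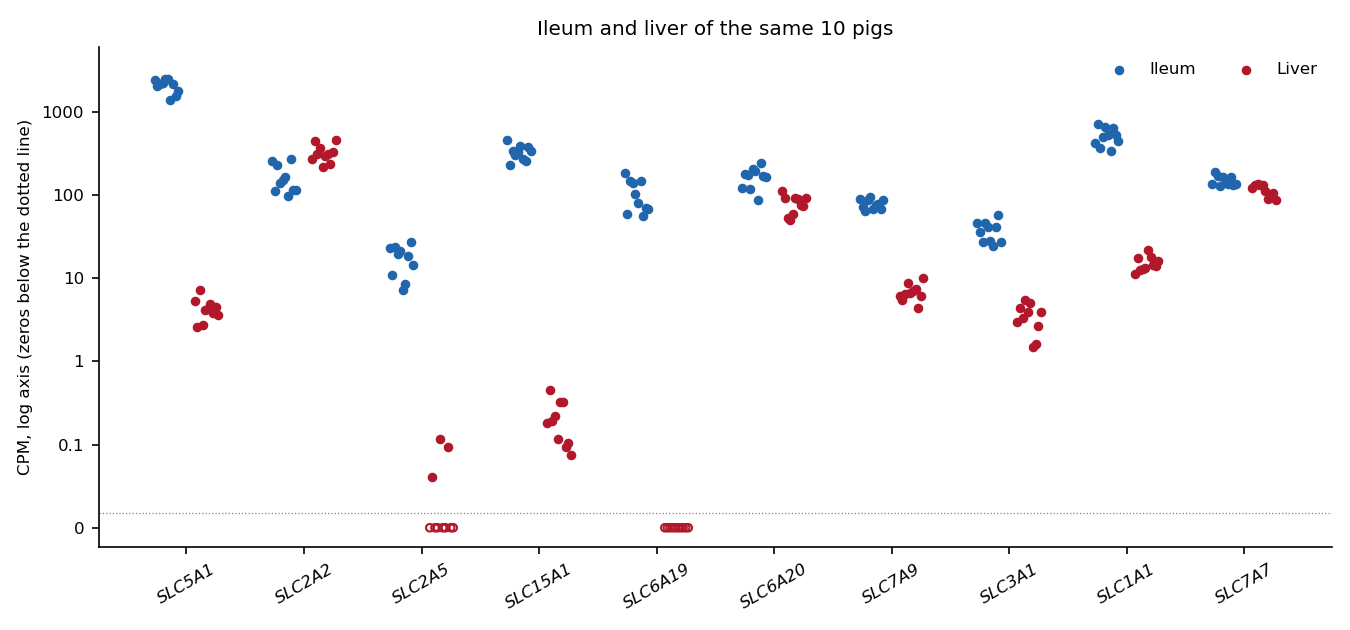
CPM of the 10 transporters in the ileum (blue) and liver (red) of the same 10 pigs, scaled over the 20 libraries, on a log axis where each point is 1 pig and open circles below the dotted line are counts of 0. SLC6A19 is at 0 in the liver of all 10 pigs, SLC2A5 in most of them, and SLC2A2 is the only member whose mean is higher in the liver on this joint scale.

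In the liver itself, per kilobase of exon, SLC2A2 led with 119 ± 31.95 CPM per kilobase (SD, n = 23), in the top 2.86% of 11025 genes and above SLC7A7 in 23 of 23 libraries. SLC7A7 followed with 14.6 ± 2.89 (SD, n = 23) and SLC6A20 with 5.65 ± 1.73 (SD, n = 23). SLC1A1 (4.14 ± 2.39, SD, n = 23) overlapped SLC6A20 and SLC7A9 (2.64 ± 0.606, SD, n = 23), and SLC3A1 (0.879 ± 0.477, SD, n = 23) overlapped SLC5A1 (0.778 ± 0.207, SD, n = 23). The place of SLC1A1 in this order depended on the diet. In the control livers it was at 2.36 ± 0.380 CPM per kilobase (SD, n = 6), next to SLC7A9 at 2.77 ± 0.545, and in the OO + PFA livers at 7.22 ± 3.17 (SD, n = 5), with SLC6A20 at 4.82 ± 0.344. The order of the members therefore differed between the tissues, with SLC5A1 at the top in the ileum and 7 of 10 in the liver.

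The difference between the PFA effect in the ileum and that in the liver was tested directly in these 20 libraries. It was called for 0 members and for 0% of the 14982 genes (739 genes and 0 members at an unadjusted p under 0.05, and 0 genes in DESeq2). SLC7A7 (difference of log2 fold changes 0.27, SE 0.16, adjusted p = 0.976) and SLC1A1 (-0.43, SE 0.28, adjusted p = 0.976) had the largest differences relative to their error. SLC6A19 gave no value, being at 0 throughout the liver.

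Across the 4 liver diets, 7 of the 10 members passed the filter on low counts, and SLC6A19, SLC15A1 and SLC2A5 did not. SLC15A1 had 0 to 11 counts and SLC2A5 0 to 3 counts in each of the 24 libraries. Of these 7, SLC1A1 and SLC7A7 were called in the test of any difference between the diets, against 3.66% of 13831 genes. SLC1A1 was highest with oxidized oil and SLC7A7 lowest, so that these carriers moved in opposite directions. The plot of intervals sets the liver differences beside those of the ileum.

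**Figure D4:**
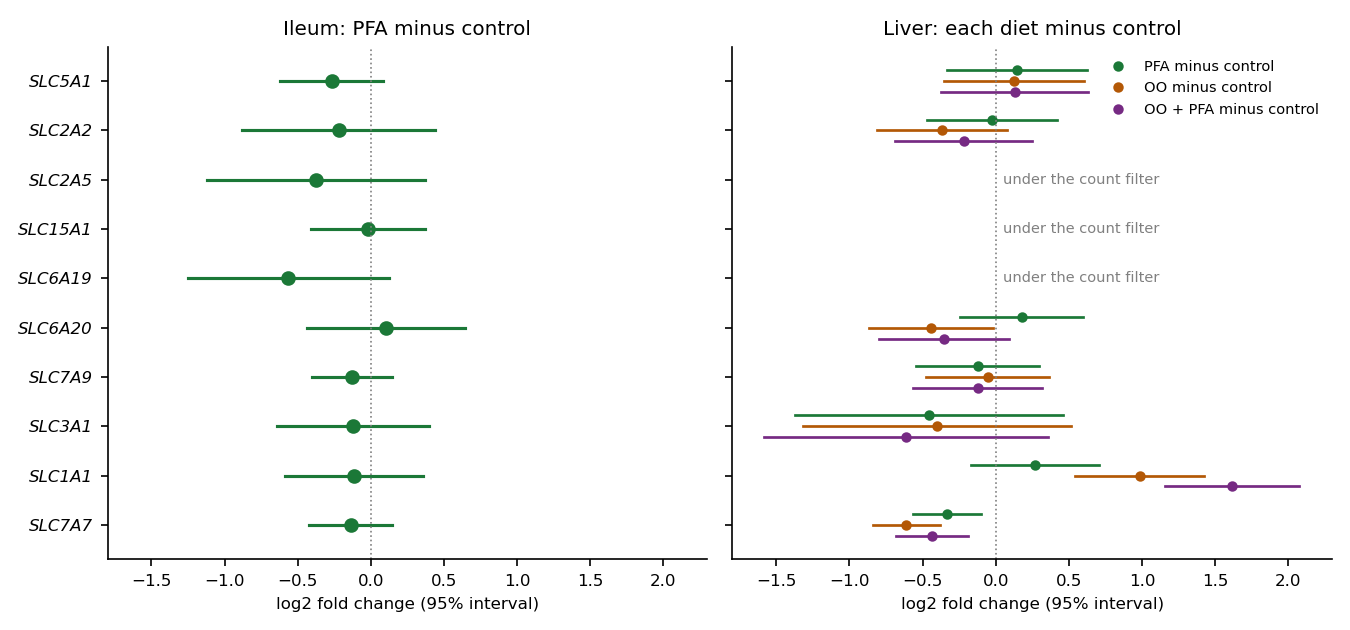
Log2 fold changes of each transporter with 95% intervals, on the left PFA minus control in the ileum (n = 5 per diet) and on the right each diet minus control in the liver (n = 6, with 5 for OO + PFA). All 10 ileum intervals include 0, whereas in the liver those of SLC1A1 for OO and OO + PFA lie above 0 and those of SLC7A7 for all 3 diets below 0. The SLC7A7 interval for PFA and the SLC6A20 interval for OO lie below 0 without a call after adjustment.

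SLC1A1 in the control livers ranged from 7.85 to 11.9 CPM with a median of 8.96, and in the PFA livers from 9.37 to 14.9 CPM with a median of 11.3. In the OO livers it ranged from 11.02 to 22.1 CPM with a median of 20.6. The OO + PFA livers had 14.9, 25.1, 25.9, 30.9 and 49.96 CPM, all above every control. Of the OO livers 5 of 6 lay above all controls, the exception being OO-99. The share of all genes that separate from the controls in this way was not counted. In edgeR's test without adjustment, p was under 0.05 in 21.37% of 13831 genes for OO against control. For OO + PFA against control that share was 22.55%.

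In the test across the diets SLC1A1 had an adjusted p of 1.78e-04. Relative to control, SLC1A1 rose by 0.98 on the log2 scale with OO (SE 0.21, 95% interval 0.54 to 1.42, adjusted p = 0.0134), where 1.37% of genes were called higher. With OO + PFA it rose by 1.62 (SE 0.22, 95% interval 1.16 to 2.07, adjusted p = 2.69e-04), where 4.09% of genes were called higher. This last contrast was added after the values had been seen. Without OP-126, the highest liver, it was 1.34, and it stayed called. With OP-77, which had 6.65 CPM, the OO value of 0.98 was no longer called (adjusted p = 0.0692), while OO + PFA against control was 1.42 (adjusted p = 0.00833).

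SLC7A7 in the control livers ranged from 83.7 to 95.0 CPM with a median of 90.1. The OO livers had 48.7 to 71.2 CPM with a median of 56.3, and the OO + PFA livers 58.8, 63.2, 65.7, 70.0 and 75.0 CPM. Neither group overlapped the controls, though the share of all genes that do the same was not counted. The PFA livers spread from 59.0 to 93.0 CPM with a median of 68.8, and 5 of 6 lay below all controls.

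Across the diets SLC7A7 had an adjusted p of 0.0111. It fell by 0.61 on the log2 scale with OO (SE 0.11, 95% interval -0.84 to -0.38, adjusted p = 0.00320), where 1.34% of genes were called lower. With OO + PFA it fell by 0.43 against control (SE 0.12, 95% interval -0.68 to -0.19, adjusted p = 0.0356), where 0.991% of genes were called lower. The latter call was lost with the GC slope as a covariate (log2 fold change -0.36, adjusted p = 0.0912), without a filter on low counts (adjusted p = 0.0507) and when any 1 of 8 pigs was left out, namely C-71, C-85, C-100, C-110, OP-79, OP-98, OP-105 or OP-126. OXA1L, which shares bases with SLC7A7 on the opposite strand, was at 0.07 with OO (SE 0.12, adjusted p = 0.760).

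**Figure D5:**
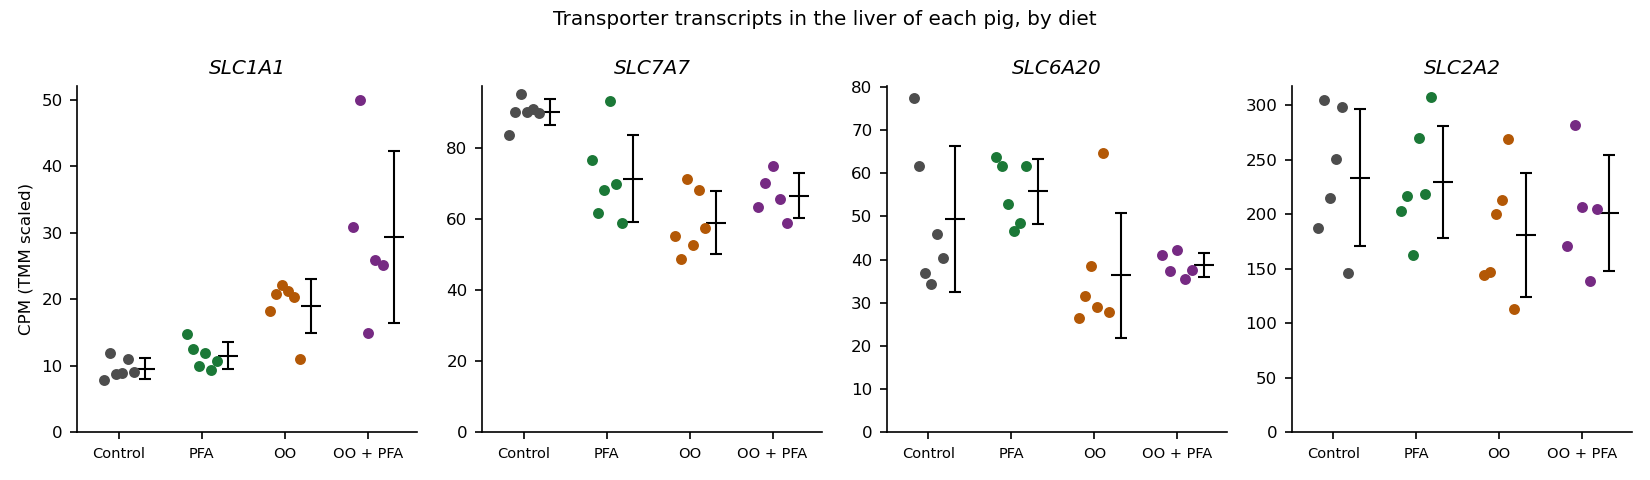
Levels of SLC1A1, SLC7A7, SLC6A20 and SLC2A2 in the liver of each pig by diet (CPM, TMM scaled, linear axes from 0), with points for pigs and bars for mean and SD (n = 6, with 5 for OO + PFA). SLC1A1 is above all controls in 5 of 6 OO livers and in 5 of 5 OO + PFA livers, and SLC7A7 is below all controls in every liver of both groups. The share of all genes that separate in this way was not counted.

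PFA alone gave no call in the liver, for 0 members and 0% of 13831 genes (1522 genes at an unadjusted p under 0.05, and 41 genes but no member in DESeq2). SLC7A7 was the 1 member with an unadjusted p under 0.05 (log2 fold change -0.33, SE 0.11, adjusted p = 0.333), and SLC1A1 was at 0.27 (SE 0.21, adjusted p = 0.653). Adding PFA to the oxidized oil gave 0 calls among the members and in 0% of genes (1176 genes at an unadjusted p under 0.05, and 35 genes but no member in DESeq2). There SLC1A1 was at 0.63 (SE 0.22, adjusted p = 0.452) and SLC7A7 at 0.18 (SE 0.12, adjusted p = 0.692). Without OP-126 the former value was 0.35.

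The remaining 5 members tested in the liver were not called in any of these comparisons. SLC6A20 had 34.3 to 77.4 CPM in the control livers, 46.6 to 63.9 CPM with PFA, 26.5 to 64.7 CPM with OO and 35.5 to 42.2 CPM with OO + PFA. Its log2 fold change with OO was -0.44 (SE 0.20, adjusted p = 0.217), and without OO-97, the highest OO liver, it was -0.69 (adjusted p = 0.0210) and called. SLC2A2 had a median of 233 CPM in the control, 218 CPM in the PFA, 174 CPM in the OO and 205 CPM in the OO + PFA livers (OO against control -0.37, SE 0.22, adjusted p = 0.335). SLC5A1, SLC7A9 and SLC3A1 were below 7 CPM in each of the 23 livers, with adjusted p across the diets of 0.946, 0.945 and 0.705.

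Other measures of the liver libraries also differed between the diets. Reads outside annotated genes made up 10.9 to 17.4% of counted reads in the control livers and 7.23 to 10.5% in the OO livers, and the GC slope ran from -0.215 to 0.0595 in the control livers and from -0.00166 to 0.424 in the 5 OO + PFA livers. Of the 6 hepatocyte markers 2 were called lower with OO, where 1.34% of genes were called lower. These were CYP2E1 (-0.62, SE 0.14, adjusted p = 0.0211) and SERPINA1 (-1.25, SE 0.27, adjusted p = 0.0150). The SERPINA1 entry was low in these livers, with means of 3.09 CPM in the control and 1.29 CPM in the OO group. CYP2E1 had means of 3813 and 2482 CPM. The summed level of the list was 92370 to 116300 CPM with OO and 81460 to 144600 CPM in the control livers. The part of these measures in the SLC1A1 and SLC7A7 values was not tested, beyond the fit with the GC slope, in which the OO values were 1.03 and -0.59 and both were called. The library titles of the liver came in a form beginning PigLiv and a form beginning PL. SLC1A1 averaged 17.1 CPM with OO and 9.38 CPM in the control group within the former (3 and 4 livers), and 20.8 and 9.97 CPM within the latter (3 and 2 livers), and for SLC7A7 the means were 61.3 and 89.6 CPM, and 56.5 and 90.5 CPM.

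Of the related genes in the liver, 1 of 17 amino acid and peptide transport genes was called across the diets, against 3.66% of all 13831 genes. This was SLC3A2, the heavy chain of the SLC7A7 dimer. It had 14.7 to 32.9 CPM in the control livers and 15.2 to 33.0 CPM with PFA. With OO it had 36.9 to 52.0 CPM and with OO + PFA 31.9 to 74.8 CPM. SLC3A2 was named for its small p across these diets, so separate ranges are no further support. SLC3A2 rose by 0.85 with OO (SE 0.21, adjusted p = 0.0291) and by 0.94 with OO + PFA (SE 0.22, adjusted p = 0.0208), while its light chain partner SLC7A7 fell in both. SLC15A2 (adjusted p = 0.110) was next in that list.

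The counts of the other lists are also to be read against the 3.66% of all genes called across the diets. Of 9 sugar transport and fructose genes tested across the liver diets, SLC2A8, an intracellular hexose carrier, was called (adjusted p = 0.0232). It had 1.75 to 6.30 CPM in the control livers and 2.92 to 6.35 CPM with PFA. The OO livers had 3.5 to 17.6 CPM and overlapped the controls, without a call. The OO + PFA livers had 10.5 to 15.9 CPM. This was a rise of 1.61 against control (SE 0.35, adjusted p = 0.0177), in the contrast added after the values had been seen. SLC2A8 was named for its small p across the diets, so separate ranges are no further support. TKFC, a fructose metabolism enzyme, was not called across the diets (adjusted p = 0.476). Of 10 partners and pumps AJUBA, a scaffold protein, was called (adjusted p = 0.0416) and ATP1B1 was not (adjusted p = 0.146). Of 12 transcription factors SP1, a general activator, was called (adjusted p = 0.0249) and fell by 0.87 with OO (SE 0.19, adjusted p = 0.0150). None of 6 luminal digestion genes was called, with MGAM and ANPEP first (adjusted p = 0.337 and 0.338).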

How the data were processed

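Poly(A) RNA of ileum and liver was sequenced (stranded kit, paired reads). The authors aligned reads with STAR 2.6.1d to Sscrofa11.1 and counted them per gene with HTSeq, and per the labels deposited raw counts per gene, neither scaled nor filtered. The strand setting and annotation release are not given in the sources used here. Rows for reads outside genes, in several genes or with several alignments (13.5 to 36.7% of all counts in a library) stayed out of library sizes and tests. Groups followed the diet and tissue labels, and the pig number in the titles named the animals.

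Counts were tested here with edgeR 4.0.16 (R 4.3.3): filterByExpr, trimmed mean of M values (TMM), quasi-likelihood F-test, Benjamini-Hochberg adjustment over all genes tested, and a call at an adjusted p of at most 0.05. Ileum against liver also needed a fold of at least 2. The study used DESeq2, which was run as an alternative (1.42.0). Log2 CPM used a prior count of 2. Standard errors were derived from the F statistic. Correlations used 100000 permutations, two-sided. The 5 ileum libraries per diet, and the 23 of 24 liver libraries kept, were fitted per tissue, and the 20 libraries of 10 pigs together for the tissue contrasts. The same pig gave both tissues, and deviations from the group means correlated between its 2 libraries by 0.0413 to 0.456 in 9 pigs and by -0.181 in P-138. The fit with pigs as blocks changed no call of a member. Exon lengths, GC content, positions and promoters came from RefSeq on Sscrofa11.1, joined by symbol (14855 genes with a unique symbol). Scripts were tested on simulated data. The depth of at least 18738055 counts sets the counting error, and a gene is taken as detected above a floor of 3 counts per library.

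The members, gene lists and named genes were chosen with earlier results of these data known. All 10 members are named. From each of 5 related lists the 3 genes of smallest unadjusted p in the ileum and the 2 of smallest p across the liver diets are named, and for each member the gene of highest Pearson's r over the ileum libraries. List symbols without a match in the tables (14 of 127) stayed out, and the partner list holds 1 gene under 2 names. P-values measure the spread between pigs of a diet. Protein sequences were not used here. Some results that the naming rule would give are not reported here.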

Additional observations from a re-analysis of the deposited data

Results flagged for a closer look

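Each member past the count filter was tested in each diet group of 5 or 6 pigs for a single far value. In 3 of these 48 sets a pig stood apart by Dixon's ratio, and chance alone flags about 1 in 20. The sets share the same libraries and are not independent. In the ileum of the PFA group, SLC6A19 was at 220.5 CPM in P-134, against 117.8 CPM in the next pig, and this library had the highest GC slope of the 10 (0.354). In the liver of the OO group, SLC6A20 was at 64.72 CPM in OO-97, against 38.48 CPM in the next pig. In the same group SLC1A1 was at 11.02 CPM in OO-99, with the next pig at 18.28 CPM. No cause was tested for any of them.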

How the results depend on the processing

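The ileum call of 0 members held under every alternative run. Libraries of 18738055 to 42446834 gene counts limit little at these levels except for SLC2A5, SLC15A1 and SLC6A19 in the liver, where counts were near or at 0, and the number of pigs per diet limits the rest. Of the values of single members or pairs under another setting, 473 kept direction and call, 11 turned in sign and 3 lost a call. Causes were not tested.

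With a fold of at least 2 also required, 1 member was called across the liver diets (main 2), 0 in OO against control (main 2) and 1 in OO + PFA against control (main 2). With all 24 liver libraries 1 member was called in OO against control. In OO + PFA against control, 1 was called with the GC slope as covariate and 1 without a filter. With at least 10 counts required in every library, 5 members (main 8) were called in ileum against liver, since that filter removes the carriers near 0 in the liver. Over all genes, the GC slope as covariate gave 26 calls for PFA in the liver (main 0), DESeq2 gave 1787 across the diets (main 506), and all 24 libraries gave 1113.

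The signs that turned belonged to values that were not called. With the GC slope as covariate these were SLC15A1 (0.032) and SLC6A20 (-0.19) in the ileum, SLC7A9 in OO + PFA against OO (0.017), and SLC2A2 in OO + PFA against control (0.087). In OO + PFA against OO, all 24 libraries gave -0.10 for SLC5A1, -0.014 for SLC2A2 and -0.10 for SLC6A20, upper quartile scaling gave -0.0024 for SLC5A1, and the title form as covariate gave -0.056 for SLC5A1 and 0.022 for SLC7A9. Without the 2 farthest libraries, r was -0.086 for SLC9A3 and SLC15A1.

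Leaving out 1 pig at a time gave 0 members throughout in the ileum, 2 to 3 across the liver diets, 2 to 3 in OO against control, 1 to 2 in OO + PFA against control, and 7 to 8 in ileum against liver. Without sign changes, the other ileum values also moved, SLC2A5 from -0.69 to -0.20, SLC3A1 from -0.36 to -0.015, SLC5A1 from -0.39 to -0.18, SLC7A7 from -0.21 to -0.054 and SLC7A9 from -0.20 to -0.087. The values that changed sign ranged as follows. In the ileum SLC15A1 ran from -0.12 to 0.12, SLC6A20 from -0.056 to 0.27 and SLC1A1 from -0.22 to 0.031. In OO against control SLC5A1 ran from -0.0045 to 0.34 and SLC7A9 from -0.14 to 0.025, and in PFA against control SLC2A2 ran from -0.13 to 0.073. In OO + PFA against OO SLC5A1 ran from -0.062 to 0.13, SLC2A2 from -0.0056 to 0.30, SLC7A9 from -0.24 to 0.029 and SLC3A1 from -0.76 to 0.30. In the difference of PFA effects between tissues SLC2A5 ran from -0.92 to 2.69, SLC15A1 from -0.24 to 0.67 and SLC6A20 from -0.39 to 0.085.

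With the pig as replicate block, ileum against liver called 8 members as in the fit without it, and the difference of PFA effects called 0. The block changed no other call of a member, and over all genes ileum against liver had 11720 calls with it and 11699 without it.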

Other observations

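The excluded liver library of the OO + PFA group, OP-77, had 6.65 CPM of SLC1A1 and 51.9 CPM of SLC7A7, each below the other 5 pigs of its group (14.9 to 49.96 CPM and 58.8 to 75.0 CPM). Its GC slope of 0.602 was the highest of all libraries. In the liver, SLC5A1 was measurable at 48 to 190 counts in each of the 23 libraries kept, and among the 7 members past the filter on low counts SLC3A1 spread most widely within a diet, with a coefficient of variation of 81.1% in the OO group against 21.2% in the control group.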
